A study of Danio rerio with 4 samples.

Results

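The intervals described here are those for which the deposited peak lists name a microRNA gene as a flanking gene, whatever the distance. The word beside is used in that sense below. Each list gives, for every interval, the RefSeq accession of the nearest named gene at lower coordinates and of that at higher coordinates. Accessions were turned into zebrafish symbols, and an interval was taken where either gene had a symbol starting with mir or let7. In the RefSeq table used, the let7 genes carry symbols such as mirlet7d-1, so the prefix mir found them too. This gave 552 of 22907 intervals in 4 lists, beside 121 of the 227 microRNA genes with such symbols. The choice rests on gene names alone and used no read count.

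MicroRNAs are short RNAs cut from hairpin transcripts. They guide Argonaute proteins to messenger RNAs that pair with the bases near the microRNA's 5′ end, the seed, and thereby lower translation and stability of those messages. In zebrafish the mir430 family is transcribed at the onset of zygotic transcription and clears many maternal messages. Other families mark later tissues, such as mir124 in neurons, mir1 and mir133 in muscle and mir203 in skin. Sox2 is a SoxB1 transcription factor, and Pou5f1, also called Pou5f3, is the zebrafish relative of mammalian Oct4. Pou5f1 is supplied by the egg, and both factors act on early zygotic genes. A gene named beside an interval is its neighbour on the map, and being the neighbour does not make it a target of the factor.

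The 3 chromatin immunoprecipitation (ChIP-seq) samples and their control were each a single library from pooled nuclei of zebrafish embryos fixed with 1% paraformaldehyde. Sox2 was precipitated with an anti-Sox2 antibody from untreated late blastula embryos of wild-type genotype, with 20000000 nuclei. Pou5f1 was precipitated through a Flag tag from maternal-zygotic spiel ohne grenzen (MZspg) embryos, which lack functional Pou5f1 and carried injected Pou5f1-Flag mRNA, at late blastula with 20000000 nuclei and at the 512-cell stage with 2000000 nuclei. For the late blastula sample the labels say that the injected dose was only as large as the rescue of the mutant required. The control was Input chromatin of wild-type embryos at late blastula, to which no antibody was added. It matches the Sox2 sample in genotype and stage, the late blastula Pou5f1-Flag sample in stage and the 512-cell sample in neither. All embryonic cells were pooled, so the lists do not tell which cells carried a peak. With 1 sample per group nothing below has a replicate check, and no p-value is given. The 512-cell and late blastula Pou5f1-Flag samples differ in nuclei as well as in stage, so these cannot be told apart.

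Whole lists held 6129 Sox2 intervals, 7130 late blastula Pou5f1-Flag intervals, 7747 512-cell Pou5f1-Flag intervals and 1901 Input intervals. In the list of late blastula Pou5f1-Flag the chromosomes come round 2 times, in blocks of 1217 and 5913 intervals, so some positions stand in it more than once. Coordinates are Zv9, counted from 1. That build is named in the 3 late blastula lists and was assumed for the 512-cell list, which names none. Read counts are the authors' counts of reads inside an interval. They are not scaled for depth, and library totals were not analysed here, so reads are compared within a list, by percentile, where 100 is the interval with most reads. Both blocks of the late blastula Pou5f1-Flag list were ranked together. Positions that it lists 2 times carried unlike counts, such as 70 and 129 reads beside mir219-1 and 124 and 189 beside mir150. Percentiles in that list therefore mix 2 blocks whose counts may differ in scale. Percentages carry exact binomial 95% intervals, which cover counting error over intervals only.

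MicroRNA genes were named beside 132 Sox2 intervals, which is 2.15% of that list (1.81 to 2.55). The late blastula Pou5f1-Flag list had 160 such intervals, or 2.24% (1.91 to 2.62), and 142 once its overlapping intervals were merged. The 512-cell list had 236, or 3.05% (2.67 to 3.45), and Input had 24, or 1.26% (0.811 to 1.87). The share counted was highest at the 512-cell stage and lowest in Input, and the 95% ranges for Sox2 and late blastula Pou5f1-Flag overlapped. Names of non-coding RNAs for which no symbol was found could not be counted. These numbered 16 in the Sox2 list, 46 in late blastula Pou5f1-Flag, 9 in 512-cell Pou5f1-Flag and 23 in Input. How many of them are microRNAs was not tested, so the order of the shares holds for names with a symbol only. That order also carries a difference in names between the 512-cell list and the others, given below.

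The Sox2 list named 57 microRNA genes, the late blastula Pou5f1-Flag list 64, the 512-cell list 100 and the Input list 12. Of the 121 genes, 37 were named by all 3 ChIP lists, 27 by exactly 2 and 56 by exactly 1. The last group was mostly from 1 list, since 44 of these genes were named by the 512-cell list alone. The like counts over all genes of the lists were not made. By intervals, 86.9% of 512-cell microRNA intervals overlapped no other ChIP list, against 86.8% of that whole list. For Sox2 it was 62.1% against 68.1%, and for late blastula Pou5f1-Flag 58.1% against 62.9%. The 44 genes had 94 intervals at the 512-cell stage, with a median of 51.5 reads and a range of 31 to 6592. Of these intervals, 5 (5.32%) overlapped an interval of either late blastula ChIP list, against 13.2% of the whole 512-cell list, and 13 (13.8%) overlapped Input, against 2.25%. Those 13 were 12 beside mir2185-1 and 1 beside mir430b-15, and the other genes of this group had none. The genes were picked because no late blastula list named them, which by itself lowers the first of these shares.

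The late blastula lists had intervals in a few of these stretches under other names. Within the stretches spanned by the 44 genes' 512-cell intervals lay 7 Sox2 intervals, at 3 genes, and 30 late blastula Pou5f1-Flag intervals, at 7 genes. When only the 56 genes named both at 512 cells and by a late blastula list were kept, the 3 ChIP shares were alike. That choice was made after seeing the data, and by construction it takes all genes of the 512-cell list alone from that list. Sox2 then had 113 microRNA intervals (1.84%, 1.52 to 2.21), late blastula Pou5f1-Flag 133 (1.87%, 1.56 to 2.21), 512-cell Pou5f1-Flag 142 (1.83%, 1.55 to 2.16) and Input 18 (0.947%, 0.562 to 1.49).

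The same position was therefore examined for the name each list gave it. Between the late blastula lists the names were the same throughout. All 44 Sox2 microRNA intervals that overlapped a late blastula Pou5f1-Flag interval shared the microRNA name with it, as did all 55 in the other direction. All 4 Sox2 and all 12 late blastula Pou5f1-Flag microRNA intervals over Input also carried the same microRNA name as the Input interval. Against the 512-cell list, the same microRNA was named at 15 of 17 Sox2 intervals and at 21 of 24 intervals of late blastula Pou5f1-Flag. In the other direction the 512-cell names were matched at 15 of 19 positions by Sox2, at 18 of 24 by late blastula Pou5f1-Flag and at 14 of 27 by Input. Those 27 included 12 beside mir2185-1, a gene that the Input list never named.

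Named examples show what differed. At chr13:54056176-54056929 both late blastula lists named vox and vent, with 617 Sox2 reads and 56 Pou5f1-Flag reads, whereas the 512-cell list, with 316 reads, named vox and mir202. Vox and vent are homeobox repressors of dorsal fate, and mir202 is a microRNA known from the gonads. At chr14:25835996-25836494 the Sox2 list, with 251 reads, named mir218a-1 and pde6a, while the 512-cell list, with 107 reads, named slit3 and pde6a. On the present assembly mir218a-1 lies inside slit3, an axon guidance ligand gene, so there 1 list gave the microRNA and the other its host gene. At chr15:1589141-1589629 the late blastula lists named mir16a and cldnj, with 202 Sox2 and 55 Pou5f1-Flag reads, and the 512-cell list named nnr and kpna4, with 63 reads. mir16a lies inside kpna4 and smc4 on the present assembly. In all, 54 of the 121 named genes (44.6%) lay inside a protein-coding gene on that assembly, against 105 of 227 in the table (46.3%).

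A second look at naming used intervals lying between others that named the same microRNA. Every such interval of the late blastula lists also named it, with 47 of 47 late blastula Pou5f1-Flag intervals lying between Sox2 ones and 38 of 38 Sox2 intervals lying between late blastula Pou5f1-Flag ones. Of late blastula Pou5f1-Flag intervals that lay between 512-cell ones, 41 of 69 (59.4%) named the same microRNA. Of those that did not, 15 lay in the stretch of mir430b-15 and 9 in that of mir2185-1. Of 512-cell intervals that lay between late blastula Pou5f1-Flag ones, 41 of 51 (80.4%) did so. Of those that did not, 8 lay in the stretch of mir125b-3. A few stretches thus held most of the differences. Which set of genes the authors drew on for naming is not given. The 512-cell list alone named mir9-2, mir9-6, mir17a-2, mir30a, mir135c-2, mir146a, mir194b, mir459, mir733, mir2185-1, mir2185-2 and mir2185-3. These carry the highest RefSeq numbers among the named microRNA genes, and no late blastula list named a gene numbered as high. What part this has in the 512-cell counts was not tested. Counts of microRNA genes in the 512-cell list and the others carry this difference in names, and so does the choice of which positions count as microRNA intervals.

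Which column named the microRNA was then compared. It was the first, lower-coordinate column in 63 and the second in 69 Sox2 intervals, so that 47.7% (39.0 to 56.6) of names stood in the first. For late blastula Pou5f1-Flag the columns held 78 and 83 names, 48.4% (40.5 to 56.4) in the first, and 1 interval named a microRNA in both. For 512-cell Pou5f1-Flag they held 134 and 105, 56.1% (49.5 to 62.5) in the first, with 3 intervals naming 1 in both. For Input they held 13 and 11, 54.2% (32.8 to 74.4). All 4 of these ranges, taken over intervals of any false discovery rate, include 50%. They treat each name as separate, although intervals beside the same gene can share a column. All 20 512-cell intervals of mir2185-1 and all 14 late blastula Pou5f1-Flag intervals of mir92a-1 named it in the first. At a false discovery rate of at most 1% the first column held 46.7% of Sox2 names and 43.8% of late blastula Pou5f1-Flag names. It held 67.6% in the 512-cell list and 33.3% in Input. No ranges were computed at that rate, and the 67.6% lies above the range of 49.5 to 62.5 given for all 512-cell names. Over 512-cell intervals of any false discovery rate, leaving out mir2185-1, mir203a and mir142a gave 47.5%, against 56.1% with them. That choice was made after seeing the data. All 20, 15 and 4 512-cell intervals of these genes named them in the first column. Leaving them out therefore lowers the share by construction. All names were accessions of the NR_ kind, which RefSeq uses for RNAs that code for no protein. Of the 38 genes with intervals on both sides, 37 had every interval on the lower side below every one on the higher side, so those lists place the gene in the gap. That gap was 3.92 kb for mir219-1 and 2.49 kb for mir219-3. The exception among the 38 was mir202. Late blastula Pou5f1-Flag named it in the first column and the 512-cell list in the second, at overlapping intervals.

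**Figure D1:**
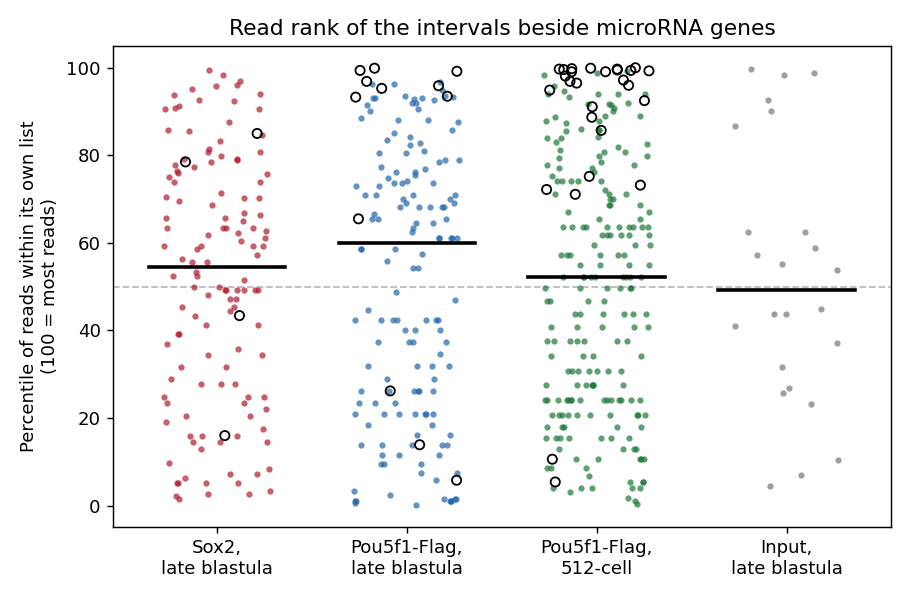
Each point is an interval beside a microRNA gene, plotted by its percentile of reads within its own list (vertical axis, 100 for most reads) for Sox2 (132 intervals), late blastula Pou5f1-Flag (160), 512-cell Pou5f1-Flag (236) and Input (24); bars are medians, the dashed line is the middle of a list, and open circles overlap an Input interval. The medians lie between 49.3 and 59.9, and most open circles of the 512-cell list stand near the top.

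By their median, microRNA intervals stood near the middle of their lists. Sox2 microRNA intervals had a median of 68.5 reads, against 63.0 in the whole list, and their median percentile was 54.5 (49.2 to 61.7, from the order of the values). For late blastula Pou5f1-Flag the medians were 47.0 and 41.0 reads, and the percentile was 59.9 (42.4 to 65.5). For 512-cell Pou5f1-Flag they were 53.0 and 52.0 reads, with a percentile of 52.3 (46.7 to 61.7). For Input they were 71.0 and 72.0 reads, with a percentile of 49.3 (31.6 to 62.4). The range of each median takes in the middle of its list. Above the 90th percentile of their list lay 14 Sox2 microRNA intervals (10.6%), 25 of late blastula Pou5f1-Flag (15.6%), 35 of 512-cell Pou5f1-Flag (14.8%) and 5 of Input (20.8%). A false discovery rate of at most 1% was listed for 81.1% of Sox2 microRNA intervals, against 81.0% of that list, and for 65.6% against 60.0% in late blastula Pou5f1-Flag. In the 512-cell list it was 28.4% against 18.7%, and in Input 62.5% against 52.8%. Of the 512-cell microRNA intervals within that rate, 37.3% overlapped Input, against 10.1% of all 512-cell intervals within it. Median lengths were 361.5 bp against 346 for Sox2, 300 against 291 for late blastula Pou5f1-Flag, 281 against 279 for 512-cell Pou5f1-Flag and 370 against 459 for Input, microRNA intervals first.

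Sharing between the factors was then asked of these positions. Of the Sox2 microRNA intervals, 44 (33.3%, 25.4 to 42.1) overlapped a late blastula Pou5f1-Flag interval by at least 1 bp, against 28.8% of all Sox2 intervals. With 512-cell Pou5f1-Flag it was 17 (12.9%, 7.68 to 19.8), against 9.32%. Of the late blastula Pou5f1-Flag microRNA intervals, 55 (34.4%, 27.1 to 42.3) overlapped a Sox2 interval, against 30.6% of that list, and 24 (9.85% to 21.5%) overlapped a 512-cell interval, against 14.0%. Of the 512-cell microRNA intervals, 19 (8.05%, 4.92 to 12.3) overlapped Sox2, against 7.44%, and 24 (10.2%, 6.63 to 14.8) overlapped late blastula Pou5f1-Flag, against 10.8%. All 6 ranges contain the share of the whole list. The shares depended on the settings, and those of the whole lists moved with them. In any other ChIP list stood 37.9% of Sox2 microRNA intervals, against 31.9% of that list, and with the first block of late blastula Pou5f1-Flag alone 21.2%, against 15.3%. For the 512-cell list it was 13.1% against 13.2%, at a false discovery rate of at most 1% 26.9% against 29.6%, and within 1000 bp 21.6% against 17.1%.

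Shared intervals were the stronger ones, as in the whole lists. Above the 50th percentile of the Sox2 list by reads, 51.4% of microRNA intervals were in another ChIP list, against 47.0% of all intervals there, and below it 21.7%, against 16.5%. For late blastula Pou5f1-Flag the shares were 57.5% against 50.5% above and 23.3% against 23.7% below. For 512-cell Pou5f1-Flag they were 22.2% against 23.8% and 2.73% against 3.14%. Positions in all 3 ChIP lists numbered 11 as Sox2 counts them (8.33% of its microRNA intervals, against 6.27% of the list). All 11 were free of Input.

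**Figure D2:**
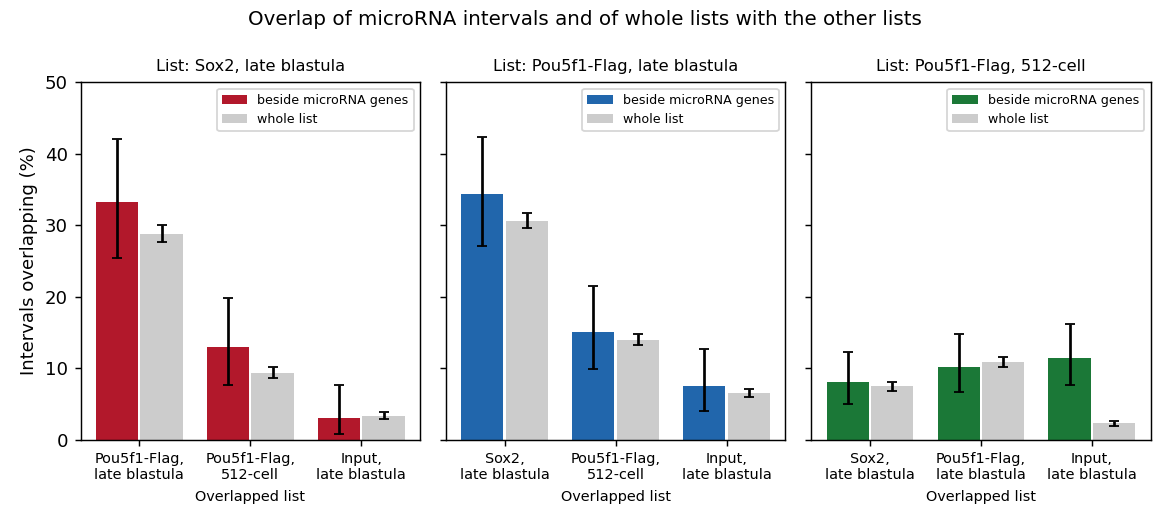
Bars give the percentage of intervals that overlap another list by at least 1 bp, for intervals beside microRNA genes (coloured) and for the whole list (grey), with exact binomial 95% intervals, in 1 panel per ChIP list. Coloured and grey bars are near each other in 8 of the 9 pairs, and the exception is the overlap of the 512-cell list with Input, 11.4% against 2.25%.

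Overlap with Input was above that of the whole list in the 512-cell list. Among Sox2 microRNA intervals 4 (3.03%, 0.832 to 7.58) overlapped Input, against 3.34% of the list. Among late blastula Pou5f1-Flag ones it was 12 (7.5%, 3.94 to 12.7), against 6.45%. Among 512-cell ones it was 27 (11.4%, 7.68 to 16.2), against 2.25%. Those 27 came from 5 genes: 12 beside mir2185-1, 9 beside mir203a, 4 beside mir142a, and 1 each beside mir2193 and mir430b-15. The late blastula lists have no mir2185-1 and name NM_001114717 in the same deep Input region. What part this difference in names has in the shares was not tested. At a false discovery rate of at most 1% the 512-cell share was 37.3%, against 10.1% of the list, and with centres within 100 bp it was 0.847%, against 0.426%. By the overlap of at least 1 bp and at any false discovery rate, the share without mir2185-1 was 6.91%. Without mir2185-1, mir203a and mir142a it was 1.01%. Both values were computed after seeing the data. The 3 genes lie beside regions where Input itself was deep, described at the end.

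**Figure D3:**
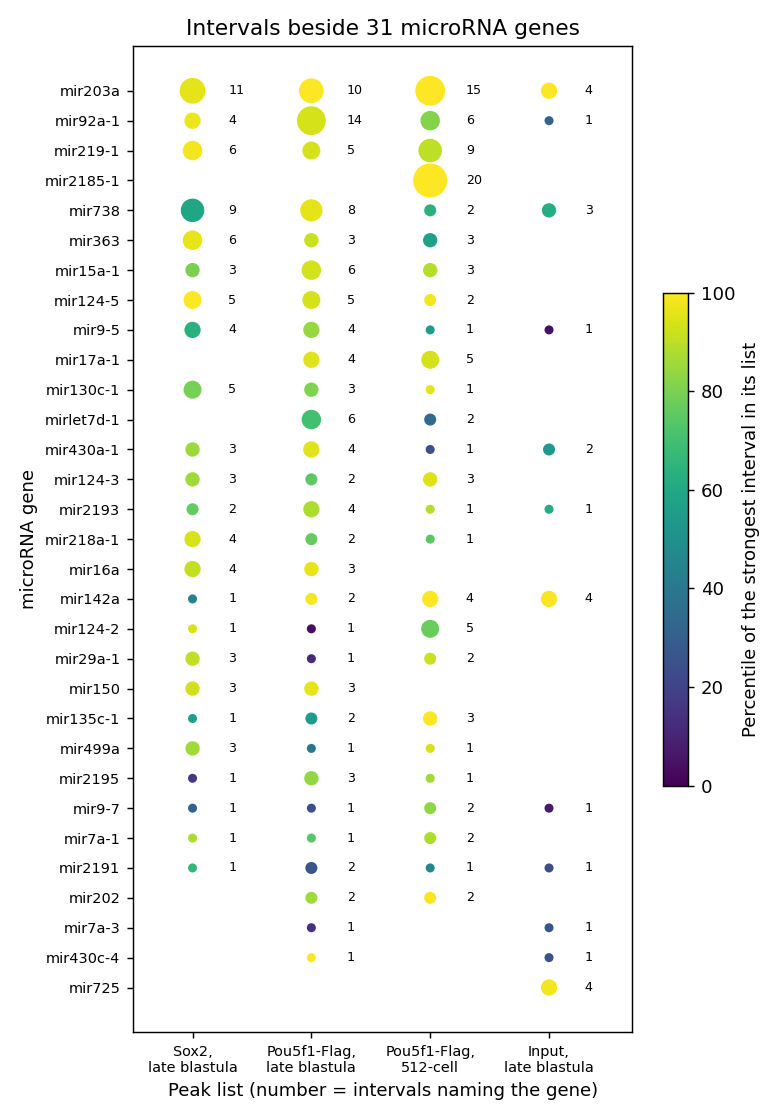
Rows are the 31 microRNA genes named under the rule given with the processing, columns are the lists; the size of a dot and the number beside it give the intervals naming the gene, and the colour gives the percentile of the strongest of them within its list. mir203a stands first with 11, 10, 15 and 4 intervals, while mir2185-1 has 20 intervals in the 512-cell list and none in the others.

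Among microRNAs of the nervous system, mir124 had the strongest Sox2 interval. mir124 is enriched in neurons and represses non-neuronal messages. Its genes had 10 intervals at 4 genes in the Sox2 list, 8 at 3 in late blastula Pou5f1-Flag, 13 at 5 in 512-cell Pou5f1-Flag and none in Input. This interval lay between bhlhe23, a basic helix-loop-helix factor gene, and mir124-5 at chr23:17940415-17941083. It had 674 Sox2 reads (rank 38 of the list), 120 late blastula Pou5f1-Flag reads (percentile 92.7) and 230 512-cell Pou5f1-Flag reads (percentile 98.3), with no Input interval. A second position near it, chr23:17922553-17923136, had 198 Sox2, 130 late blastula Pou5f1-Flag and 116 512-cell Pou5f1-Flag reads, each above the 90th percentile of its list. A further one, chr23:17950737-17951243, had 227 Sox2 and 94 late blastula Pou5f1-Flag reads and no 512-cell interval. Both late blastula lists thus had 3 matching positions in this gap, and the 512-cell list had the first and the second of them.

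mir124-3, beside ythdf3, a reader of methylated adenosine in RNA, also had a position in all 3 ChIP lists, chr24:25057533-25058186. It had 154 Sox2, 64 late blastula Pou5f1-Flag and 67 512-cell Pou5f1-Flag reads. The strongest 512-cell interval of this gene was elsewhere, with 141 reads at chr24:24965268-24965770. mir124-2 had 1 Sox2 interval with 257 reads, 1 late blastula Pou5f1-Flag interval with 20 reads and 5 512-cell intervals of 35 to 69 reads. None of its positions was named mir124-2 by more than 1 list. In the stretch these intervals span, late blastula Pou5f1-Flag had 3 intervals of up to 109 reads, whatever their names. One with 47 reads, named msraa and rcan2, overlapped the 512-cell interval of 35 reads.

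**Figure D4:**
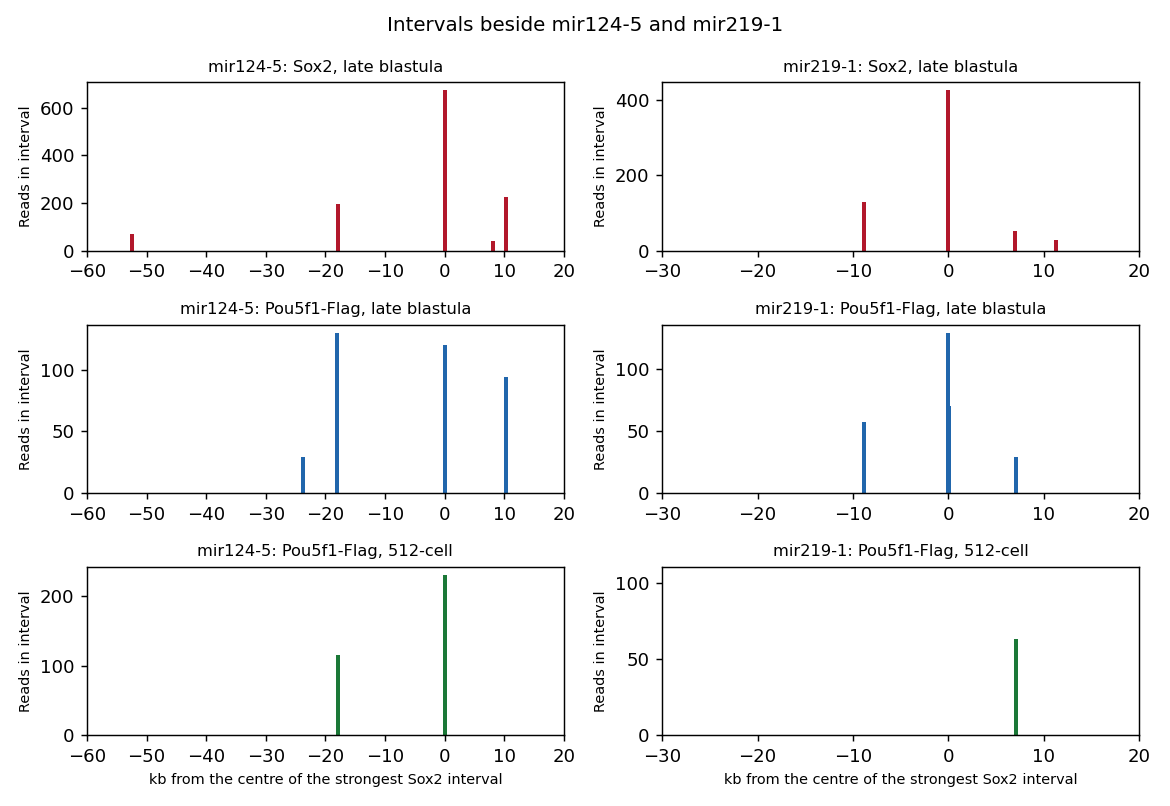
Bars are single intervals naming mir124-5 (left) and mir219-1 (right), placed by distance in kb from the centre of the gene's strongest Sox2 interval, with height giving reads per interval, for Sox2, late blastula Pou5f1-Flag and 512-cell Pou5f1-Flag; intervals outside the drawn window are left out. For mir124-5 the 674, 120 and 230 reads stand at the same place, and for mir219-1 the position with 425 Sox2 reads has none at the 512-cell stage.

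mir219 drives the maturation of oligodendrocytes, the myelinating cells of the brain. Its 3 genes had 9 Sox2, 8 late blastula Pou5f1-Flag and 10 512-cell Pou5f1-Flag intervals and none in Input. At mir219-1 the strongest position was chr10:10285014-10285557, with 425 Sox2 reads (percentile 98.3). The late blastula Pou5f1-Flag list held it in 2 overlapping intervals of 129 and 70 reads, and the 512-cell list had none there. A weaker position, chr10:10292177-10292480, was in all 3, with 52 Sox2, 29 late blastula Pou5f1-Flag and 63 512-cell Pou5f1-Flag reads. Its percentile was 39.3 in the Sox2 list, 20.9 in that of late blastula Pou5f1-Flag and highest, 71.1, in the 512-cell list. It lies at the edge of the 3.92 kb gap that the lists leave for the gene. mir219-3 had 108 Sox2 reads and 2 late blastula Pou5f1-Flag intervals of 58 and 123 reads at chr19:18442105-18442548. Its 512-cell interval, with 50 reads, lay on the other side of the gene.

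mir9 acts in neural progenitors and at the midbrain-hindbrain boundary. Its genes had 8 Sox2, 6 late blastula Pou5f1-Flag, 13 512-cell Pou5f1-Flag and 2 Input intervals, none above 88 reads. In the 512-cell list mir9-2 had 2 intervals and mir9-6 had 3, and no other list named these genes. The position in all 3 lists, chr5:49936108-49936389 between tmem161b and mir9-5, had 35 Sox2 reads, 82 late blastula Pou5f1-Flag reads in the stronger of 2 intervals and 54 512-cell Pou5f1-Flag reads. Its percentile was 84.3 in late blastula Pou5f1-Flag, 54.9 in 512-cell Pou5f1-Flag and the lowest, 16.0, in Sox2. Of the 11 positions in all 3 lists, this and the second mir124-5 position were the ones at which late blastula Pou5f1-Flag had the highest percentile. mir7a-1, of a family expressed in neuroendocrine cells, had 170 Sox2, 62 late blastula Pou5f1-Flag and 93 512-cell Pou5f1-Flag reads at chr25:13571101-13571606. mir218, encoded within slit genes and enriched in motor neurons, had 5, 5 and 1 intervals in the Sox2, late blastula Pou5f1-Flag and 512-cell Pou5f1-Flag lists. Among intervals naming mir218a-1 the strongest had 251 Sox2 reads, 66 late blastula Pou5f1-Flag reads and 66 512-cell Pou5f1-Flag reads, at 3 different positions. The position with 251 Sox2 reads also had a 512-cell interval, of 107 reads, which that list named slit3 and pde6a. The late blastula lists met at chr14:26090726-26091160, with 140 Sox2 and 66 Pou5f1-Flag reads.

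The mir17 to mir92 clusters favour cell proliferation in mammals. Their genes had 11 Sox2, 25 late blastula Pou5f1-Flag, 19 512-cell Pou5f1-Flag and 1 Input interval. mir92a-1 shares a gap of over a megabase with spry2, an inhibitor of Fgf signalling, and had 4 Sox2, 14 late blastula Pou5f1-Flag, 6 512-cell Pou5f1-Flag and 1 Input interval there. The strongest Sox2 interval of mir92a-1 had 336 reads at chr1:4165981-4166735, in no other list. The strongest of late blastula Pou5f1-Flag had 130 reads, that of the 512-cell list 77 and that of Input 46, each at another place. Many intervals in a long gap name the same pair of genes whatever the distance.

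No Sox2 interval named mir17a-1. It had 4 late blastula Pou5f1-Flag intervals of 61 to 149 reads and 5 512-cell ones of 35 to 127 reads. They met at chr1:2804228-2804663, with 96 late blastula and 127 512-cell reads. mir363, beside gpc4, a glypican needed for convergence and extension, had 309 Sox2 reads (percentile 96.1) and 112 and 52 late blastula Pou5f1-Flag reads at chr14:32037359-32037891. Its 3 512-cell intervals of 47 to 55 reads lay elsewhere. mir18c, next to cab39l1, was in all 3 lists at chr14:32337677-32338093, with 63 Sox2, 28 late blastula Pou5f1-Flag and 82 512-cell Pou5f1-Flag reads.

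The mir15 and mir16 microRNAs target cell cycle genes and the survival gene BCL2 in human cells. The shared mir16a position given above had 202 Sox2, 55 late blastula Pou5f1-Flag and 63 512-cell Pou5f1-Flag reads, and the strongest late blastula Pou5f1-Flag interval naming mir16a, with 189 reads, was in no other list. mir15a-1 had 3 Sox2, 6 late blastula Pou5f1-Flag and 3 512-cell Pou5f1-Flag intervals. At chr1:47327918-47328447 Pou5f1-Flag had 123 reads at late blastula and 98 at the 512-cell stage, and there was no Sox2 interval. At chr1:47329746-47330164 there were 125 Sox2 and 78 late blastula Pou5f1-Flag reads and no 512-cell interval. Late blastula Pou5f1-Flag was listed at both positions, and each of the other ChIP lists at 1 of them.

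Other genes at shared positions belong to several tissues. mir130c-1 had 122 Sox2, 55 late blastula Pou5f1-Flag and 154 512-cell Pou5f1-Flag reads at chr10:17457286-17457860. mir29a-1, of a family that lowers extracellular matrix messages in mammals, had 199 Sox2, 25 late blastula Pou5f1-Flag and 114 512-cell Pou5f1-Flag reads at chr4:10653013-10653600. Late blastula Pou5f1-Flag was weakest there, at percentile 11.6, against 90.6 for Sox2 and 91.7 for 512-cell Pou5f1-Flag. mir499a, encoded within a myosin heavy chain gene of heart and slow muscle, had 155 Sox2, 36 late blastula Pou5f1-Flag and 131 512-cell Pou5f1-Flag reads at chr11:26190525-26190958. mir150, a regulator of lymphocyte development in mouse, was strong in both late blastula lists, with 232 Sox2 reads (percentile 92.6) and 189 and 124 Pou5f1-Flag reads at chr3:32701743-32702242, and no 512-cell or Input interval named it.

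At other positions the Pou5f1-Flag lists had an interval and Sox2 had none. mir2195 had 80 and 68 late blastula Pou5f1-Flag reads and 88 512-cell Pou5f1-Flag reads at chr3:45418251-45418683, while its single Sox2 interval of 35 reads lay elsewhere. mir202 had 86 and 46 late blastula Pou5f1-Flag reads and 109 512-cell Pou5f1-Flag reads at chr13:54065571-54065966, and no Sox2 interval overlapped it. The late blastula list placed mir202 below this position and the 512-cell list placed it above, so the 2 lists conflict there. The vox position given above, which the 512-cell list also names beside mir202, did have a Sox2 interval. The strongest Input-free microRNA interval of the 512-cell list lay beside mir135c-1 at chr11:39411755-39413367, with 449 reads. The Sox2 interval of that gene had 71 reads, the late blastula Pou5f1-Flag intervals had 43 and 36, and all were at other positions.

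The remaining families are given by their counts. The let7 genes, which time developmental transitions, had 7 Sox2, 8 late blastula Pou5f1-Flag and 10 512-cell Pou5f1-Flag intervals of at most 121, 57 and 61 reads. mirlet7d-1 had 6 of the 8 late blastula Pou5f1-Flag intervals, of 17 to 57 reads, and none for Sox2. The muscle microRNAs mir1, mir133 and mir206 had 1, 2 and 2 intervals in the Sox2, late blastula Pou5f1-Flag and 512-cell Pou5f1-Flag lists, of at most 29, 49 and 60 reads. The mir10 genes of the Hox clusters had 1 interval with 72 Sox2 reads, 1 with 26 late blastula Pou5f1-Flag reads and 3 of at most 52 512-cell reads. The mir196 genes, of the same clusters, had 1 interval with 92 Sox2 reads, none for late blastula Pou5f1-Flag and 2 of at most 46 512-cell reads. mir126, an endothelial microRNA, had 1 512-cell interval with 61 reads, and mir34, a p53 target in mammals, had 1 Sox2 interval with 23 reads and 1 512-cell interval with 46. mir181 had 2, 2 and 6 intervals and mir204, of lens and retinal pigment epithelium, had 5 in the 512-cell list and none in the others. mir137 has no symbol in the table that meets the rule, and the mir138 gene that meets it was named by no interval.

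mir430 is the microRNA family known to act at these stages, and its copies stand in a repeated cluster on chromosome 4, so reads cannot be tied to single copies. Of 58 family members in the table, 8 meet the symbol rule, and 3 of those were named. The late blastula Pou5f1-Flag list had 1 interval at the cluster, chr4:28000584-28017858, with 24747 reads, naming mir430c-4. The 512-cell list had 3 short intervals inside it, of 147, 65 and 38 reads, and the Sox2 list had none within it. Input had 12151 reads in nearly the same stretch, chr4:28000990-28017855. The deep Input interval named accessions with no symbol in the table, and a short one beside it, with 41 reads, named mir430c-4. The late blastula Pou5f1-Flag reads there stood beside deep Input, and what part the repeats have in this was not tested. The 512-cell list named mir430b-15 at 4 intervals of up to 65 reads in chr4:28017323-28233376, which begins inside the deep intervals and runs on above them. In the same stretch, leaving out those deep intervals, Sox2 had 2 intervals of up to 178 reads, late blastula Pou5f1-Flag 15 of up to 395 reads and Input 4 of up to 7569 reads. None of these named mir430b-15, and the first of them in each list named the accession NR_030137. mir430a-1, beside pitpnb on chromosome 10, had 2 positions over Input. At chr10:4331692-4332189 there were 119 Sox2 reads, 2 late blastula Pou5f1-Flag intervals of 156 and 128 reads and 60 Input reads. At chr10:4333593-4334145 there were 150 Sox2 and 80 Input reads and no Pou5f1-Flag interval of either stage. The 512-cell interval of mir430a-1, with 44 reads, lay elsewhere.

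mir203a illustrates how a gap can hold both kinds of interval. mir203 promotes epidermal differentiation in mouse skin. The gene had 11 Sox2, 10 late blastula Pou5f1-Flag, 15 512-cell Pou5f1-Flag and 4 Input intervals over 1655064 bp. Its strongest Sox2 interval, chr17:46086881-46087579, had 299 reads, overlapped a 512-cell interval of 58 reads and was free of Input. Another, chr17:46082122-46082651, had 277 Sox2 reads and late blastula Pou5f1-Flag intervals of 56 and 38 reads. The strongest Pou5f1-Flag intervals instead lay inside the Input interval chr17:46607265-46658023, which had 28564 reads. They had 1477 late blastula and 1472 512-cell reads, and the Sox2 list had 35 reads at that interval.

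**Figure D5:**
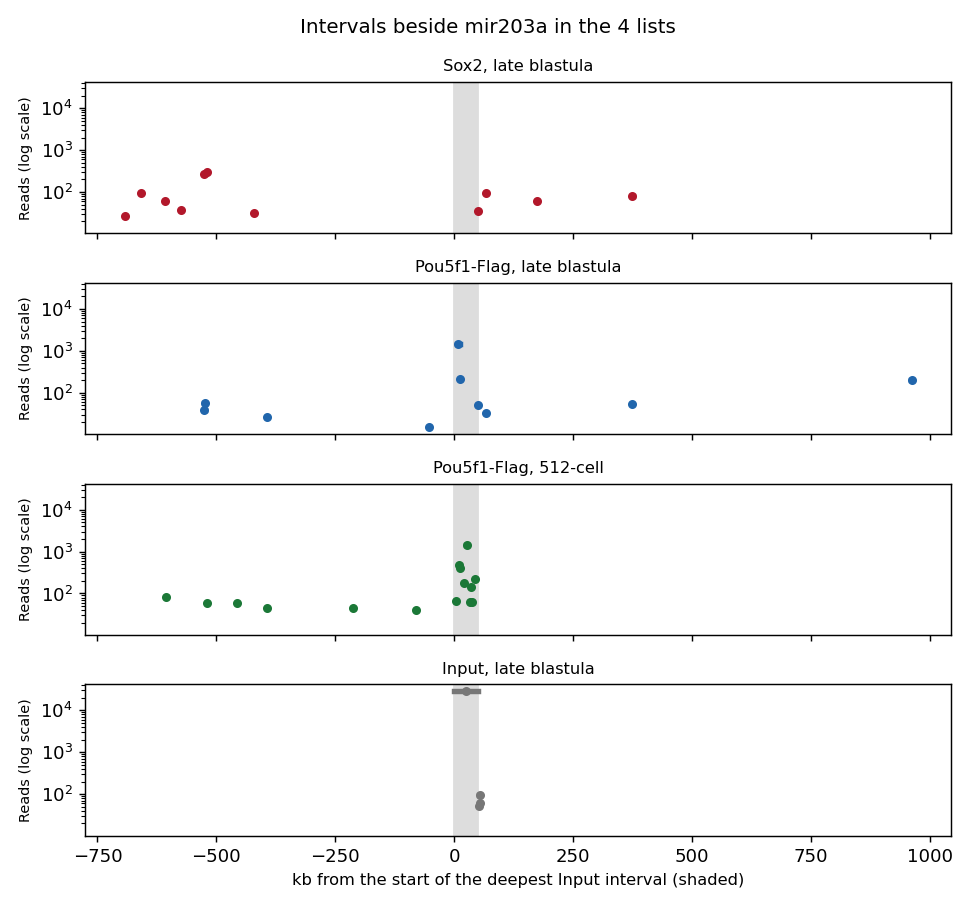
Each point with its line is an interval naming mir203a, placed by distance in kb from the start of the deepest Input interval (shaded), with reads on a log scale, for Sox2, late blastula Pou5f1-Flag, 512-cell Pou5f1-Flag and Input. The strongest Sox2 intervals, 299 and 277 reads, lie outside the shaded stretch, and the 1477 and 1472 Pou5f1-Flag reads lie inside it.

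Deep Input also lay beside mir142a, mir2185-1 and mir725. At mir142a, a blood microRNA, the late blastula Pou5f1-Flag interval of 915 reads and all 4 512-cell intervals, with 168 to 1041 reads, lay in Input, whose deepest interval there had 11872 reads. The one Sox2 interval naming mir142a, with 56 reads, also overlapped Input, at an interval of 920 reads. Of the 20 512-cell intervals naming mir2185-1, 19 lay on chromosome 17 and the other on another chromosome. In the chromosome 17 stretch the Sox2 list had up to 1551 reads in an interval and late blastula Pou5f1-Flag up to 731. There 512-cell Pou5f1-Flag had up to 6592 and Input up to 18947. The late blastula lists named NM_001114717 and supt7l there, so mir2185-1 was absent from them by name and not by position. mir725 was the only microRNA gene named by Input and no ChIP list, with 4 Input intervals of up to 6845 reads. The 512-cell list had 577 reads in that stretch and named cfhl3 and another accession. Input was weaker beside mir738, in a long gap on chromosome 4. There Sox2 had 9 intervals of 25 to 75 reads, none over Input. Late blastula Pou5f1-Flag had 8, and its strongest, of 170 and 130 reads, overlapped Input intervals of 106 and 56 reads.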

How the data were processed

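Per the labels' protocols, chromatin of each sample was sheared, precipitated (except Input) and sequenced as 1 library. The series text says that Pou5f1 was run in technical duplicates, without naming the stage. The submitters' processing notes name CASAVA, with aligner and peak caller not given in the sources used here. Per the file headers, the authors deposited 1 peak list per sample with the count of all, forward and reverse reads, the false discovery rate (percent), a Wilcoxon filter p-value, 2 flanking genes and a normalized difference. The last equals the strand difference as a fraction of the reads in the deposited lists. No normalized signal was used.

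Accessions were matched to symbols through a RefSeq table of GRCz12tu, used for names and neighbours only; a symbol was found for 94.5% of the accessions named by Sox2, 95.1% by late blastula Pou5f1-Flag, 95.6% by 512-cell Pou5f1-Flag and 92.0% by Input. Intervals were shared where they overlapped by at least 1 bp, and Input-free where they overlapped no Input interval. Both were tested on simulated intervals. Genes inside protein-coding genes were taken from the same table. Python 3.11.15, pandas 2.3.3, numpy 2.4.6, scipy 1.17.1 and matplotlib 3.10.9 were used. Library depth is unknown. No statistical test was made.

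The rule for named genes took, per ChIP list, the 5 microRNA genes with the strongest Input-free interval, per list the 5 with most intervals, the 15 best of 39 genes named by 2 or more ChIP lists at overlapping positions, and all 12 genes of Input, 31 genes in all. A list of families was added. The positions in all 3 ChIP lists were given in addition. Members and lists were chosen with earlier results of these data known. Alternatives were the false discovery rate threshold, the overlap rule, merged intervals, each pass of the late blastula Pou5f1-Flag list, each gene column and which microRNA genes were counted.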

Additional observations from a re-analysis of the deposited data

How the results depend on the processing

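Of 257 alternative values, 223 stayed within 1.5 times a count or within the interval of a share, and 34 moved. The 223 include values that could not move. Keeping only NR_ accessions changed nothing, since all microRNA names were of that kind. Leaving out mir2185-1 could not change lists that never name it. Merging overlapping intervals changed values in the late blastula Pou5f1-Flag list only. No paired analysis was possible because each group holds 1 sample, and no sample could be left out. With a false discovery rate of at most 1%, 105 late blastula Pou5f1-Flag, 67 512-cell Pou5f1-Flag and 15 Input microRNA intervals were left, and 35 genes at 512 cells. The share in another ChIP list was then 28.0% for Sox2, against 26.9% of that whole list. For 512-cell Pou5f1-Flag it was 26.9%, against 29.6%. Input overlap of the 512-cell list was 37.3%, against 10.1%, and its first column held 67.6% of names. The first pass of the late blastula Pou5f1-Flag list alone held 31 microRNA intervals at 25 genes. Of these, 58.1% were in another ChIP list, against 47.6% of that whole pass, and 25.8% over Input, against 20.5%. It left 21.2% of Sox2 microRNA intervals shared, against 15.3% of the Sox2 list. The second pass gave 3.1% over Input, and the share of that whole pass was not computed. With centres within 100 bp, Input overlap was 2.5% for late blastula Pou5f1-Flag, against 3.18% of the list. In the 512-cell list it was 0.847%, against 0.426%. By that rule 20.8% of Input microRNA intervals were shared with a ChIP list, and the share of the whole Input list was not computed. Within 1000 bp, 21.6% of 512-cell microRNA intervals were shared, against 17.1% of the list. The first gene column alone gave 63 Sox2, 78 late blastula Pou5f1-Flag, 134 512-cell Pou5f1-Flag and 13 Input intervals, and the second gave 69, 83, 105 and 11; fewer columns give fewer names by construction. The other choices were added after seeing the data. Symbols starting with dre- raised Input to 38 intervals. Leaving out mir2185-1 put 512-cell Input overlap at 6.91%. Leaving out mir203a and mir142a as well gave 1.01%, with 47.5% of 512-cell and 31.2% of Input names in the first column. Every name of these genes in both lists stood in the first column, so both column shares fall by construction. Genes named at both stages had 142 512-cell intervals at 56 genes, 18.3% of them shared. Causes of these differences were not tested. Unknown library depth limits every comparison of reads between lists.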

Other observations

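The symbol rule leaves out 124 microRNA genes whose symbols start with dre-, of which 50 are copies of mir430. Counting these as well, a choice made after seeing the data, gave 179 Sox2 (2.92%), 219 late blastula Pou5f1-Flag (3.07%), 316 512-cell Pou5f1-Flag (4.08%) and 38 Input intervals (2.0%), at 80, 88, 137 and 18 genes. The order of the lists by share was the same as under the rule. mir137, a microRNA of neurons, came in only by this wider count, with 1 Sox2, 2 late blastula Pou5f1-Flag, 7 512-cell Pou5f1-Flag and 1 Input interval.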
